A study of Mus musculus with 15 samples.

Results

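A set of 10 genes that move a liver cell from rest into the cell cycle, or hold it back, was followed across Mdr2-knockout liver tumours, non-tumorous Mdr2-knockout livers and livers of heterozygous mice. They comprised the D-type cyclins Ccnd1, Ccnd2 and Ccnd3, their kinase partner Cdk4, the kinase inhibitors Cdkn1a, Cdkn1b and Cdkn2c, the antiproliferative gene Btg2, the p53 regulator Mdm2 and the stress gene Gadd45b. Every probe set annotated to 1 of these 10 genes was taken, and each was read apart. That gave 26 of the 22690 probe sets on the array, of which 24 passed the filter on dim probe sets, among 16128 that passed in all. The members were selected with measured values of these same arrays known, foremost the higher signals of Ccnd1, Cdkn1a, Cdkn2c and Btg2 in knockout than in heterozygous liver. Both comparisons against the heterozygous livers are therefore given for the members as a description with no p-value, and their counts past the threshold are printed there only beside those of all probe sets. The tumours against the non-tumorous livers are given with a test, although those livers are among the samples whose levels led to the choice.

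Knockout tissue came from mice homozygous for the Mdr2 knockout at 16 months of age, as 6 liver tumours and 6 samples of non-tumorous liver. The controls were 3 livers of mice heterozygous for the same knockout, also 16 months old. The labels name no treatment, no wild-type liver was among the 15, and the strain and sex are not given in the sources used here. The non-tumorous livers came from mice 1 to 6. The tumours came from mice 3, 4, 5 and 6, with a pair of tumours each from mice 5 and 6, here called 5-1, 5-2, 6-1 and 6-2. All 6 tumours thus have a non-tumorous liver of the same mouse beside them. The controls also carry the knockout allele in 1 copy, so they are not wild type. RNA was hybridised to Affymetrix expression arrays and the values are MAS5 signals, which are brightness values on a linear scale. Signals of different probe sets are not comparable with each other, only the same probe set between samples.

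Mdr2, now named Abcb4, carries phosphatidylcholine into bile, and mice without it develop chronic bile duct and liver inflammation and, late in life, liver tumours. D-type cyclins bind Cdk4 and its close relative Cdk6, and the active kinases phosphorylate the retinoblastoma protein, which releases E2F factors for entry into S phase. The INK4 inhibitors, of which Cdkn2c (p18) is 1, bind Cdk4 and Cdk6 themselves, while Cdkn1a (p21) and Cdkn1b (p27) act mainly on cyclin-Cdk2 complexes. Cdkn1a, Btg2 and Mdm2 are known targets of the p53 tumour suppressor, Mdm2 marks p53 for breakdown, and Gadd45b is induced by stress and inflammatory signals. In liver, cyclin D1 is the D-type cyclin best known for its induction in regenerating hepatocytes.

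Promoter windows of members in RefSeq (mouse build GRCm38.p6, 250 bases before to 50 after each gene's start) are shown for Cdkn1a, Btg2 and Cdkn2c, each with a probe set on which all knockout samples lay above all controls, and for Cdk4, whose groups overlapped, with letters known to be bound by cell-cycle regulators. Of the 10 members 8 matched a window, with 11 windows in all, and Ccnd1 and Ccnd2 had no entry. The motifs were chosen with the sequences in view, both strands were searched, and a match is a description of letters, not a site. The first window is that of the upstream start of Cdkn1a, on the plus strand at chr17:29090729-29091028, with a p53 element, a tandem of the decamers that p53 binds, in capitals. The element is 1 letter off the consensus and begins 51 bases before the start. Of all 32851 promoter windows, 18 (0.0548%) held such an element with at most 1 letter off.
Cdkn1a: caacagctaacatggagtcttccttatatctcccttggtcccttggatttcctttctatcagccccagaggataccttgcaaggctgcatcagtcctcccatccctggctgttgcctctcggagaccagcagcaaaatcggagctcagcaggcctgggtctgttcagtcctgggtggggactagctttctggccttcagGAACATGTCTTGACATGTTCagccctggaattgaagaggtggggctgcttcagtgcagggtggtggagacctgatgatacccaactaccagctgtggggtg
The second is Btg2, on the minus strand at chr1:134079106-134079405, with its CRE (TGACGTCA), the letters bound by CREB and ATF factors, in capitals. A CRE was held by 1.79% of all windows.
Btg2: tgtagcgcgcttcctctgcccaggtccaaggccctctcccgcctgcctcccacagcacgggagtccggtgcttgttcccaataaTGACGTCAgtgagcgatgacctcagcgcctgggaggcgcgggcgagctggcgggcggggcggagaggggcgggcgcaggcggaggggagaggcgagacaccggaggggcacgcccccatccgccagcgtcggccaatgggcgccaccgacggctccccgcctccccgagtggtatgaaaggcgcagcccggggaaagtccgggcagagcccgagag
The third is Cdkn2c at its upstream start, on the minus strand at chr4:109666707-109667006, with 4 GC boxes (GGGCGG), the letters bound by Sp1, in capitals where they read in the direction of the gene. A GC box was held by 35.7% of all windows and by 9 of the 11 member windows. This window also held letters bound by E2F factors (TTCCCGC), left in small letters, that begin 25 bases before the start. Such E2F letters were held by 9.57% of all windows and by 1 of the 11 member windows.
Cdkn2c: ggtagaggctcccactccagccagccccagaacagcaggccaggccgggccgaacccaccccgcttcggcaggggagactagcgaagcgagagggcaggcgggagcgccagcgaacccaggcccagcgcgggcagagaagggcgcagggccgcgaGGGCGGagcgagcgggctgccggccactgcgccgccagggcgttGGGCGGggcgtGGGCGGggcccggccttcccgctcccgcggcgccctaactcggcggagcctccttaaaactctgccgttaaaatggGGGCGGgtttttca
The last is Cdk4, on the plus strand at chr10:127063285-127063584, with 4 E boxes (CACGTG), the letters bound by Myc and its relatives, in capitals. An E box was held by 7.15% of all windows.
Cdk4: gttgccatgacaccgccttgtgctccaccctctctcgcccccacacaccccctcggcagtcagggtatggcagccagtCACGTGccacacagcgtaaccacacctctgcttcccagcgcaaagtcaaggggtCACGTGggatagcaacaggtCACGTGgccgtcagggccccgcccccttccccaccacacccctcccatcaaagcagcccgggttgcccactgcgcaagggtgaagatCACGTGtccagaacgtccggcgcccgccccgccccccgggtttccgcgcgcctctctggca
The p53 element was found in 1 of the 11 member windows and the CRE in 1. No match in a window says only that these letters are not in it.

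Facts of the arrays that touch the members were these. Abcb4, the targeted gene, read 397.1, 681.1, 122.5, 237.7, 173.6 and 200.2 in tumours 3, 4, 5-1, 5-2, 6-1 and 6-2 and 177.4 to 305.7 in the knockout livers, against 778.9 to 1006.4 in the heterozygous livers. All knockout samples lay below all controls, but tumours 3 and 4 lay above every knockout liver and tumour 4 came near the lowest control. The sources do not say which part of the gene the probes cover, so this signal is a limited check of the labels. Without tumour 4 the log2 changes of tumours against knockout livers were -0.57 for Ccnd1 on 1448698_at, 0.17 for Cdkn2c, 0.63 for Cdkn1a on 1424638_at and 1.25 for Gadd45b on 1450971_at. The ratio of the 3' to the 5' actin control probe sets, a sign of RNA integrity, averaged 1.78 ± 0.208 in tumours, 2.09 ± 0.393 in knockout livers and 2.99 ± 0.414 in heterozygous livers (SD, n = 6, 6 and 3). Tumour 5-1 stood apart: its median correlation with the other tumours was 0.880, the lowest of the 6, and its median signal of 51.2 the highest of the 15. Results that rest on it are given with and without it. The summed signal of 5 hepatocyte markers was 44669 to 55654 in tumours, 50182 to 65512 in knockout livers and 62122 to 68699 in heterozygous livers, so the labelled tissue carried its defining markers throughout. In bulk tissue, fewer cells of a type and less RNA per cell cannot be told apart.

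Cyclin D1 was high in the knockout livers on each of its 3 probe sets, and it was above the controls in 5 of 6 tumours and below them in tumour 5-1. On 1448698_at, Ccnd1 signals were 1050.4, 677.6, 181.8, 840.8, 1464.2 and 1420.3 in tumours 3, 4, 5-1, 5-2, 6-1 and 6-2. They were 854.8, 1121.0, 1268.8, 1326.1, 1257.3 and 1538.2 in knockout livers 1 to 6, and 198.6, 333.3 and 285.5 in heterozygous livers 1 to 3. The knockout livers lay above all 3 controls, and so did every tumour other than 5-1, whose value was the lowest of all 15 samples. On 1417419_at the tumours read 730.4, 430.0, 88.3, 536.1, 731.2 and 665.0, the knockout livers 441.6, 708.2, 1078.3, 688.6, 687.6 and 1173.8, and the heterozygous livers 206.4, 260.9 and 202.9. On 1417420_at the tumours read 949.1, 630.9, 161.6, 1070.6, 1701.9 and 1683.0, the knockout livers 760.4, 957.7, 1298.3, 1038.5, 1005.3 and 1376.2, and the heterozygous livers 250, 316.7 and 247.9. All 3 probe sets thus gave the same order of groups, with knockout livers and controls apart and only tumour 5-1 below the controls.

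As a description of values that led to the choice, Ccnd1 differed between knockout and heterozygous livers by a log2 change of 1.73 ± 0.48, 1.93 ± 0.49 and 2.14 ± 0.44 on 1417419_at, 1417420_at and 1448698_at (SE, on the log2 scale after a constant of 9.1 was added). Between tumours and heterozygous livers the same 3 probe sets differed by 0.97, 1.58 and 1.53, and by 1.41, 2.03 and 1.93 without tumour 5-1. Tumours against knockout livers gave -0.76, -0.35 and -0.62, with limma adjusted p-values of 0.542, 0.834 and 0.605. The 95% intervals ran from -1.58 to 0.06, from -1.20 to 0.49 and from -1.38 to 0.15. In the 4 mice that gave both tissues, with the mouse as a block, the changes were -0.93, -0.52 and -0.76, with intervals of -1.84 to -0.03, -1.51 to 0.47 and -1.64 to 0.12 and adjusted p-values of 0.653, 0.835 and 0.703, so 1 of the 3 intervals then left out 0 and no probe set passed. Without tumour 5-1 the changes were -0.32, 0.10 and -0.21. Each tumour set against the liver of its own mouse was lower on 1417419_at and on 1448698_at in 6 of 6 pairs, but on 1417420_at in 3 of 6. In tumour 5-1 these differences were -2.84, -2.73 and -2.57 on 1417419_at, 1448698_at and 1417420_at, while in the other 5 tumours they lay between -0.96 and 0.30.

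**Figure D1:**
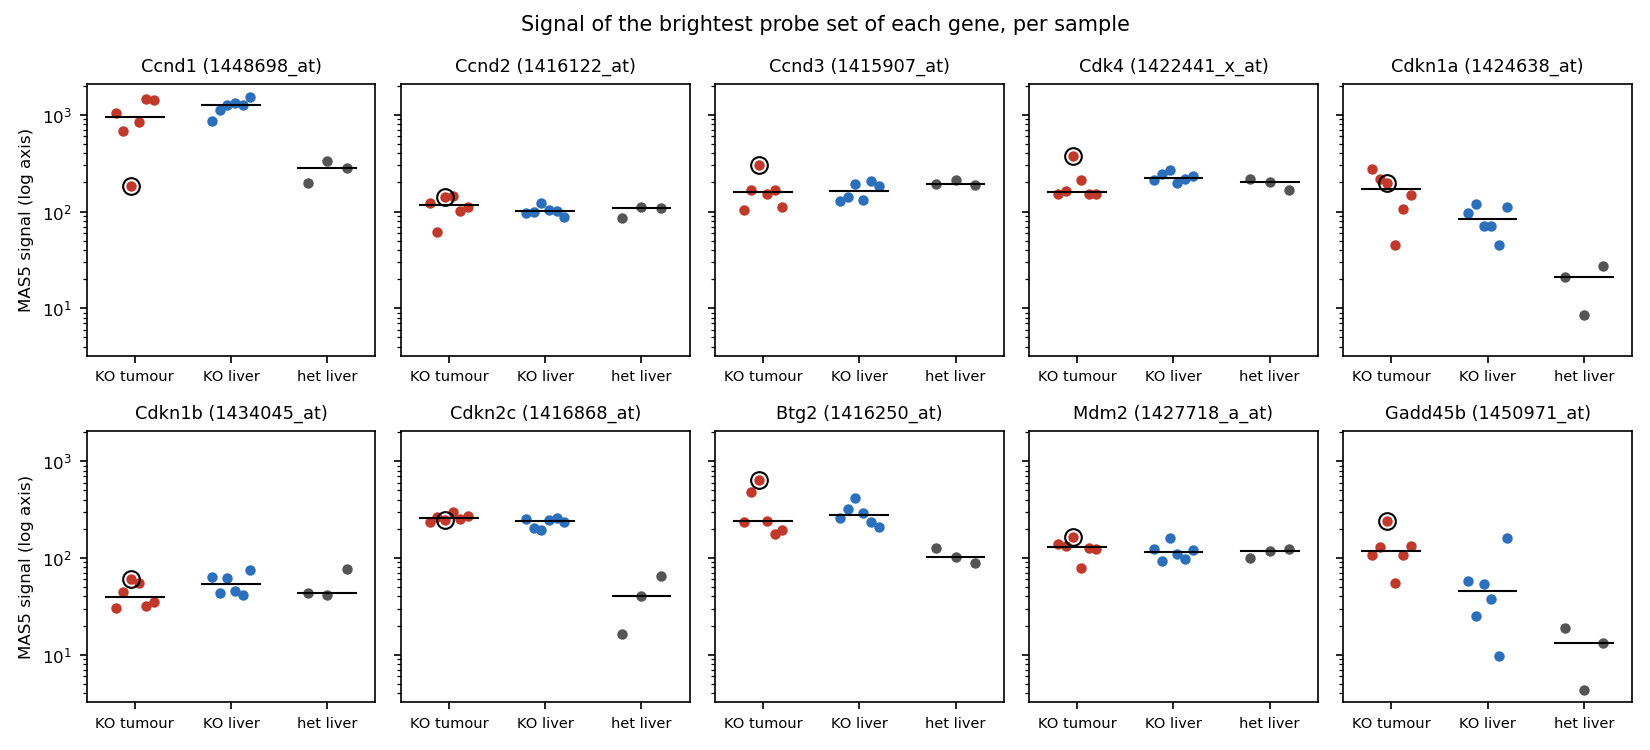
MAS5 signal (log axis) of the probe set with the highest mean for each of the 10 genes, 1 point per sample, for 6 knockout tumours (red), 6 knockout livers (blue) and 3 heterozygous livers (grey), with the median as a bar and tumour 5-1 ringed. Ccnd1 was at 854.8 to 1538.2 in knockout livers and at 198.6 to 333.3 in heterozygous livers, and the ringed tumour read 181.8.

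The other D-type cyclins and Cdk4 differed less between the groups, and their samples overlapped on every probe set kept but 1. Ccnd2 was measured by 7 probe sets, of which 1416124_at was too dim to pass the filter. On the remaining 6 the log2 change was between -0.24 and 0.28 for tumours against knockout livers, between -0.08 and 0.25 for knockout against heterozygous livers, and between -0.32 and 0.44 for tumours against heterozygous livers. The exception was 1448229_s_at, on which Ccnd2 read 26.9 to 38.7 in the knockout livers and 23.6 to 26.8 in the heterozygous livers, a small gap beside the tumours' 3.6 to 50.7. The tumours spread more than the livers: on 1434745_at Ccnd2 read 64.4, 36.6, 106.4, 141.1, 71.8 and 74.0 in the tumours, 67.5 to 84.9 in the knockout livers and 47.2 to 83.0 in the heterozygous livers. Tumour 5-2 was the highest tumour on 5 of the 6 Ccnd2 probe sets kept and tumour 4 the lowest on 4. Ccnd3 read 104.8, 169.0, 300, 151.0, 167.6 and 111.8 in the tumours, 128.2 to 206.2 in the knockout livers and 187.2 to 210.8 in the heterozygous livers. Its groups overlapped, with a log2 change of -0.03 for tumours against knockout livers, -0.28 for knockout against heterozygous livers and -0.30 for tumours against heterozygous livers. Without tumour 5-1, whose 300 was the highest of all samples, Ccnd3 gave -0.21 for tumours against knockout livers and -0.49 for tumours against heterozygous livers.

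Cdk4, the kinase that these cyclins activate, was measured by 3 probe sets. On 1422439_a_at it read 126.7, 98.6, 269.7, 124.4, 82.5 and 96.8 in the tumours, 106.3, 136.2, 164.6, 68.1, 132.5 and 159.0 in the knockout livers, and 56.9, 83.3 and 73.8 in the heterozygous livers. On 1422440_at the tumours read 85.3, 106.6, 254.3, 93.2, 129.6 and 141.7, the knockout livers 114.9 to 167.2 and the heterozygous livers 97.5 to 116.5. On 1422441_x_at the tumours read 151.2, 162.6, 374.0, 211.3, 150.7 and 152.7, the knockout livers 195.1 to 267.5 and the heterozygous livers 166.6 to 219.3. Tumour 5-1 was the highest of all 15 samples on each of them. Knockout against heterozygous livers gave 0.73, 0.36 and 0.21 on the log2 scale and the groups overlapped on every Cdk4 probe set. Tumours against knockout livers gave -0.00, -0.13 and -0.25, with limma adjusted p-values of 0.999, 0.891 and 0.720, and -0.22, -0.32 and -0.44 without tumour 5-1. The interval for 1422441_x_at was then -0.73 to -0.15, with a limma adjusted p of 0.230.

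Among the kinase inhibitors, Cdkn2c showed the least spread within the knockout tissues, and all its knockout samples lay above all its controls. Cdkn2c read 237.8, 266.2, 247.8, 301.8, 251.2 and 272.6 in the tumours and 254.7, 205.2, 195.3, 249.5, 256.9 and 235.3 in the knockout livers, against 16.3, 40.9 and 65.4 in the heterozygous livers. The lowest of the 12 knockout samples, at 195.3, was well above the highest control, at 65.4, and tumour 5-1 lay within the range of the other tumours. The log2 change was 2.40 ± 0.24 for knockout against heterozygous livers and 2.57 ± 0.24 for tumours against heterozygous livers (SE), given as a description. Tumours against knockout livers gave 0.17, with a 95% interval of -0.24 to 0.58 and a limma adjusted p of 0.831. Against its own liver, the tumour was higher in 5 of 6 pairs, by -0.05 to 0.27 on the log2 scale. Heterozygous liver 1, at 16.3, was the dimmest sample and under 28.8, the 40th percentile of all signals, so the size of the gap depends on the constant: for knockout against heterozygous livers it was 2.72 when nothing was added and 1.97 when 28.8 was added.

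Cdkn1a was measured by 2 probe sets that differed from each other. On 1424638_at Cdkn1a read 274.2, 218.4, 198.0, 45.4, 106.2 and 147.5 in the tumours, 96.0, 118.3, 70.6, 70.9, 45.4 and 110.8 in the knockout livers, and 21.1, 8.4 and 27.4 in the heterozygous livers. All 12 knockout samples were above all 3 controls, which were all under the 40th percentile of 28.8, and the tumours spread from the level of the lowest knockout liver to over the highest. The log2 change was 1.76 ± 0.41 for knockout against heterozygous livers and 2.51 ± 0.41 for tumours against heterozygous livers (SE), as a description. With controls this dim both depend on the constant: they were 2.26 and 3.07 when nothing was added, and 1.24 and 1.90 when 28.8 was added. Tumours against knockout livers gave 0.75, with a 95% interval of 0.05 to 1.46 and a limma adjusted p of 0.461, which did not pass the threshold of 0.05. In the matched mice, with the mouse as a block, the change was 1.04, with an interval of 0.19 to 1.88. Its limma adjusted p of 0.599 did not pass either. Set against the liver of the same mouse, tumours 3, 4 and 5-1 were higher by 1.83, 1.51 and 1.93 on the log2 scale, while tumours 5-2, 6-1 and 6-2 differed by 0.00, -0.06 and 0.39. The pair of tumours from mouse 5 thus lay far apart. The second probe set, 1421679_a_at, was dim, at 4.2 to 40.6 in tumours, 4.2 to 28.7 in knockout livers and 5.1 to 20.8 in heterozygous livers, and gave 0.42, -0.27 and 0.15 in the same 3 comparisons.

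Cdkn1b, the p27 inhibitor that restrains resting cells, did not set the groups apart. On 1434045_at Cdkn1b read 30.7 to 61.3 in the tumours, 41.5 to 74.4 in the knockout livers and 41.1 to 77.8 in the heterozygous livers, and its log2 change was -0.31 for tumours against knockout livers (limma interval -0.75 to 0.13) and 0.04 for knockout against heterozygous livers. Its other probe set, 1419497_at, did not pass the filter and read 12.2 to 28.7 in tumours, 3.1 to 48.7 in knockout livers and 14.3 to 31.3 in heterozygous livers.

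**Figure D2:**
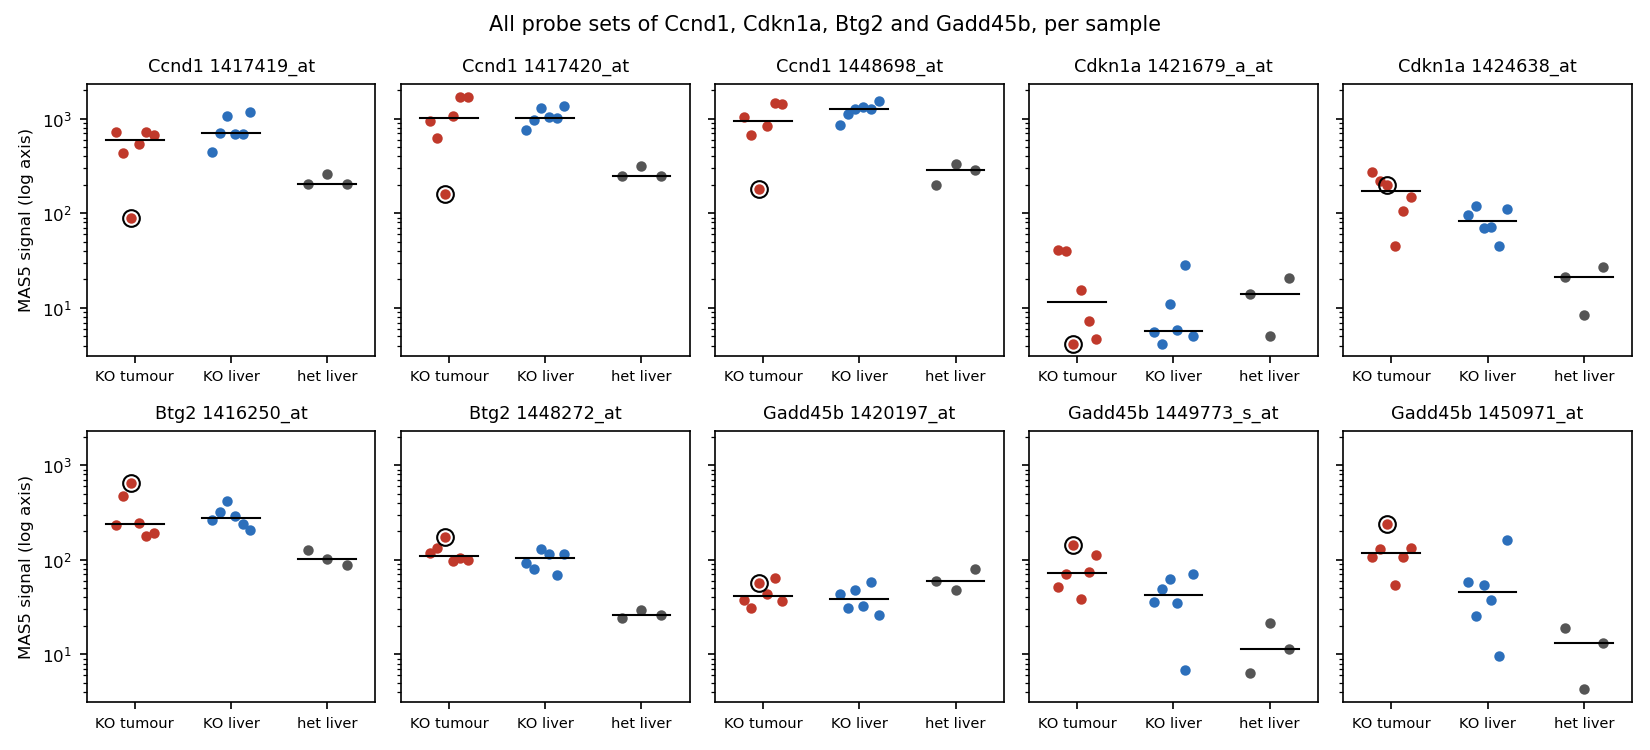
MAS5 signal (log axis) on all probe sets of Ccnd1, Cdkn1a, Btg2 and Gadd45b, 1 point per sample, for knockout tumours (red), knockout livers (blue) and heterozygous livers (grey), with the median as a bar and tumour 5-1 ringed. The 3 Ccnd1 and the 2 Btg2 probe sets show the same pattern, while 1421679_a_at of Cdkn1a and 1420197_at of Gadd45b do not follow the others of their gene.

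Btg2, a p53-induced gene that slows entry into S phase, was higher in every knockout sample than in every control on both of its probe sets. On 1448272_at Btg2 read 117.4, 132.1, 173.7, 96.2, 104.7 and 100.4 in the tumours, 92.3, 80.7, 129.9, 115.0, 68.6 and 114.8 in the knockout livers, and 24.5, 29.5 and 26.3 in the heterozygous livers. On 1416250_at the tumours read 236.1, 477.2, 648.4, 242.1, 177.3 and 192.9, the knockout livers 261.5, 319.5, 414.2, 292.5, 236.5 and 207.3, and the heterozygous livers 126.2, 102.5 and 88.8. Tumour 5-1 was the highest sample on both, and tumours 6-1 and 6-2 were the lowest knockout samples on 1416250_at. Knockout against heterozygous livers differed by 1.58 ± 0.22 and 1.35 ± 0.33 on the log2 scale, and tumours against heterozygous livers by 1.83 and 1.40, as a description. Tumours against knockout livers gave 0.25 and 0.05, with limma adjusted p-values of 0.687 and 0.971 and intervals of -0.12 to 0.62 and -0.52 to 0.62, and 0.15 and -0.18 without tumour 5-1. Tumour and own liver differed by -0.79 to 1.42 on 1416250_at, with 3 of 6 pairs higher in the tumour.

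Gadd45b was the member with the largest difference between tumours and knockout livers, and that difference did not pass the test. On 1450971_at Gadd45b read 107.8, 130.7, 240.0, 54.6, 107.9 and 133.4 in the tumours, 57.8, 25.4, 53.8, 37.4, 9.6 and 161.3 in the knockout livers, and 18.8, 4.3 and 13.1 in the heterozygous livers. Every tumour was above every control, while the knockout livers ran from the control level in mouse 5 to above 5 of the 6 tumours in mouse 6. On 1449773_s_at the tumours read 51.6, 71.0, 144.3, 39.0, 75.1 and 112.4, the knockout livers 36.0, 49.4, 62.8, 35.1, 6.9 and 71.3, and the heterozygous livers 6.4, 21.7 and 11.4. Tumours against knockout livers gave a log2 change of 1.28 ± 0.41 on 1450971_at, with an interval of 0.41 to 2.14 and a limma adjusted p of 0.262, the smallest of any member in this comparison. On 1449773_s_at the change was 0.85, with an adjusted p of 0.438. Without tumour 5-1 these were 1.08 and 0.68, and without knockout liver 5 they were 0.96 and 0.52. Without knockout liver 6, the highest of its group, they were 1.61 and 1.00, with a limma adjusted p of 0.0942 on 1450971_at, so the size rested on single livers in either direction. Against the own liver, Gadd45b on 1450971_at differed by 0.89 and 1.59 in tumours 3 and 4, by 3.74 and 1.77 in tumours 5-1 and 5-2, and by -0.54 and -0.26 in tumours 6-1 and 6-2. Knockout against heterozygous livers differed by 1.38 and 1.14, and tumours against heterozygous livers by 2.66 and 1.98, on 1450971_at and 1449773_s_at. All controls were under the 40th percentile of their array on both, so these sizes too depend on the constant: tumours against heterozygous livers on 1450971_at gave 3.53 when nothing was added, 1.88 when 28.8 was added and 4.12 with the actin ratio as a covariate. A further probe set annotated to Gadd45b, 1420197_at, was lower on average in the knockout groups, at -0.56 and -0.42 in those comparisons. Its groups overlapped, with 30.6 to 63.6 in tumours, 25.8 to 58.8 in knockout livers and 47.9 to 79.5 in heterozygous livers.

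Mdm2, itself a p53 target and the ligase that removes p53, had overlapping groups on both of its probe sets. On 1427718_a_at Mdm2 read 78.8 to 165.0 in the tumours, 94.2 to 161.7 in the knockout livers and 100.2 to 125.2 in the heterozygous livers. On 1423605_a_at it read 64.6 to 136.1 in the tumours and 78.8 to 94.8 in the knockout livers, while the 3 controls read 189.2, 31.5 and 79.3 and so spanned more than all 12 knockout samples. The log2 change was between 0.03 and 0.21 on both Mdm2 probe sets in the 3 comparisons with all samples, with 95% limma intervals for tumours against knockout livers of -0.27 to 0.46 and -0.49 to 0.64. Against the scattered controls of 1423605_a_at it turned on single samples: knockout against heterozygous livers gave 0.71 without control 1 and -0.44 without control 2, and tumours against heterozygous livers 0.78 and -0.36.

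**Figure D3:**
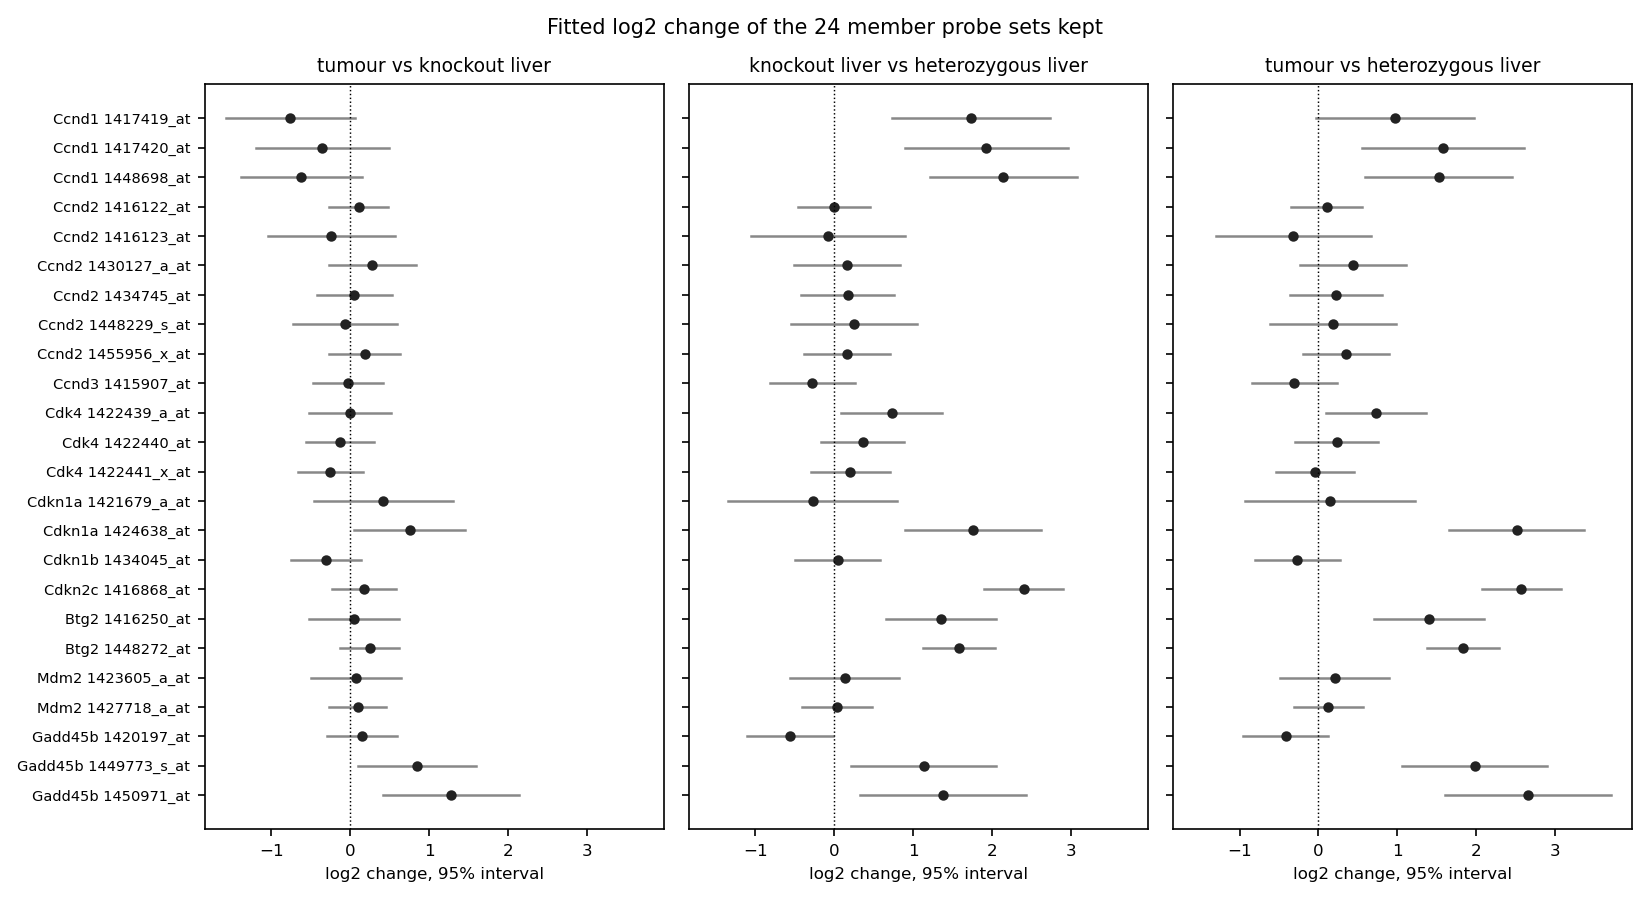
Fitted log2 change (x axis) with its 95% limma interval for each of the 24 member probe sets kept (y axis), for tumours against knockout livers, knockout against heterozygous livers, and tumours against heterozygous livers. Cdkn2c lies at 0.17, 2.40 and 2.57, and Gadd45b on 1450971_at at 1.28, 1.38 and 2.66.

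Counted over the members, tumours and knockout livers differed at an adjusted p under 0.05 on 0 of 24 probe sets by limma, with 3 at an unadjusted p under 0.05 (Cdkn1a on 1424638_at, and Gadd45b on 1450971_at and 1449773_s_at). Over all 16128 probe sets tested, 0.124% passed, and 1613 were at an unadjusted limma p under 0.05. In that comparison 0 of the 24 had groups that did not overlap, beside 0.161% of all probe sets apart and higher in tumours and 0.502% apart and lower. The median log2 change was 0.06 over the members and 0.02 over all probe sets. Knockout livers were above heterozygous livers past the threshold on 5 of 24 member probe sets, of 4 genes (Ccnd1, Cdkn1a, Cdkn2c and Btg2), beside 1.46% of all probe sets higher, and the groups were apart and higher on 8, beside 7.73%. Tumours were above heterozygous livers on 7, of 5 genes (those 4 and Gadd45b), beside 3.89%, and apart and higher on 6, beside 5.38%. The members' median log2 change was 0.23 and 0.29 in these comparisons, beside -0.02 and -0.00 over all probe sets. Since the members were selected on these differences and both comparisons use the same 3 controls, nothing is read from these counts. They also moved with single samples. Without tumour 5-1 the count was 7 for knockout livers and 9 for tumours, with all 3 Ccnd1 probe sets in both. Over all probe sets 477 and 985 then passed in either direction, beside 293 and 1026 with all arrays. Without any 1 of the 3 controls the count for knockout livers was 2 (Cdkn2c and Btg2 on 1448272_at). Over all probe sets it then fell to 84, 91 and 73 without controls 1, 2 and 3. Of 15 fits that each left out 1 array, Ccnd1 on 1448698_at stayed past the threshold in 12 for knockout livers but only 2 for tumours. For knockout livers Cdkn1a on 1424638_at stayed in 7 and Btg2 on 1416250_at in 8. The remaining member probe sets past the threshold stayed so in 13 to 15. Nothing is read from these fits either, since the members were selected on the same differences.

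Beside these genes, summed macrophage markers and summed stellate cell and fibroblast markers were higher in every knockout liver than in every heterozygous liver. Of the tumours only tumour 4 lay below the lowest heterozygous liver, on both sums, in which bright probe sets weigh most. On the macrophage sum all other tumours, at 3282.5 to 5400.5, lay above every heterozygous liver. On the stellate cell and fibroblast sum tumours 5-1, 5-2 and 6-1 lay above all controls, and tumours 3 and 6-2 lay among them. The summed signal of 7 macrophage markers was 881 to 5400.5 in tumours, 2516 to 4256 in knockout livers and 1730 to 1821 in heterozygous livers, with 2 of 7 higher past the threshold in knockout livers and 2 of 7 in tumours, against heterozygous livers. That of 7 stellate cell and fibroblast markers was 641 to 2390 in tumours, 1329 to 3449 in knockout livers and 752 to 1100.3 in heterozygous livers, with 1 of 7 higher past the threshold in each comparison. Of 5 hepatocyte markers 1 was lower past the threshold in tumours than in heterozygous livers. No marker of bile duct, endothelium, T and NK cells or B and plasma cells passed the threshold. Only 2 of 5 T and NK cell markers and 3 of 5 B and plasma cell markers were bright enough to be tested. No marker of the 7 lists was at 0 in any sample, but some were very dim, such as Cftr at 0.3 in tumour 5-1. The part of these cells in the members' levels was not tested. With the actin ratio as a covariate, the log2 changes for tumours and for knockout livers against heterozygous livers were described again. They were 2.04 ± 0.38 and 2.02 ± 0.32 for Cdkn2c and 2.53 ± 0.73 and 2.85 ± 0.59 for Ccnd1 on 1448698_at (SE). For Cdkn1a on 1424638_at they were 2.97 ± 0.71 and 2.09 ± 0.58. These SEs are larger than without the covariate. The ratio was 1.51 to 2.06 in tumours and 2.55 to 3.37 in heterozygous livers, so ratio and group cannot be told apart there.

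Tumour 5-1 was often at an extreme of the tumours. It was the highest of the 6 tumours on 11 of the 24 member probe sets (45.8%, against 28.0% of all probe sets kept), among Btg2, Ccnd3, Cdk4, Cdkn1b, Gadd45b and Mdm2. It was the lowest on 5 (all 3 of Ccnd1, and 1 dim probe set each of Ccnd2 and Cdkn1a), as it was on 15.8% of all probe sets kept. The summed macrophage markers were also highest in tumour 5-1, at 5400.5, although the resident macrophage marker Clec4f was at 28.4 there, the lowest of the tumours. Their part in its member levels was not tested. Tumour 5-2, of the same mouse, had 840.8 for Ccnd1 on 1448698_at, where tumour 5-1 had 181.8, and 45.4 for Cdkn1a on 1424638_at, where tumour 5-1 had 198.0.

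**Figure D4:**
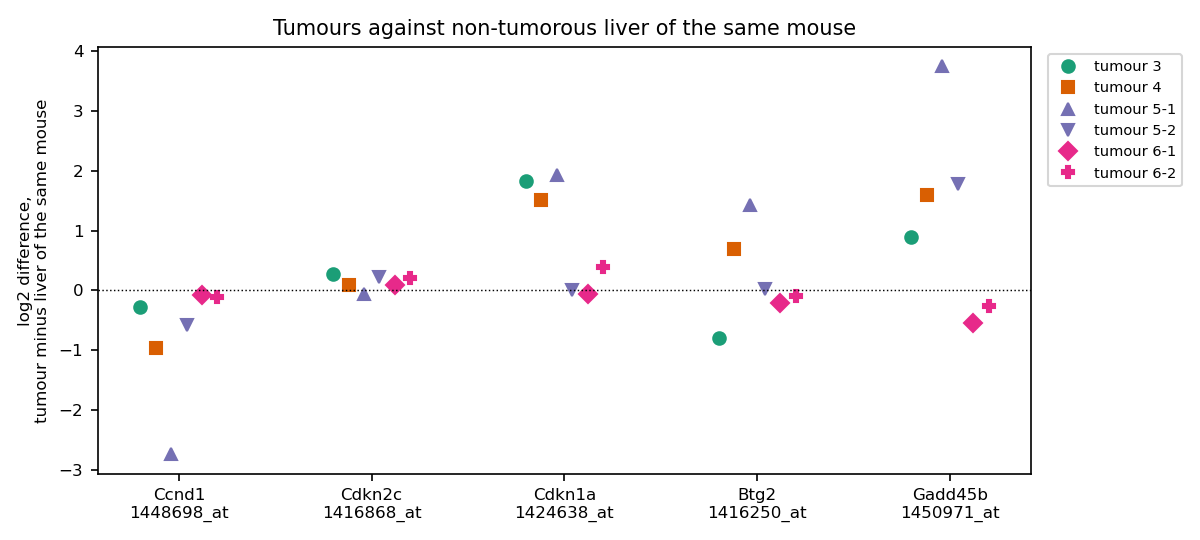
Log2 difference between each tumour and the non-tumorous liver of its own mouse (y axis) for 1 probe set each of Ccnd1, Cdkn2c, Cdkn1a, Btg2 and Gadd45b (x axis), with symbols for the 6 tumours and the same colour for tumours of 1 mouse. Cdkn2c stays within -0.05 and 0.27, while Ccnd1 of tumour 5-1 is at -2.73 and its Gadd45b at 3.74.

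Other genes of the same pathways were counted by gene, each on its probe set with the highest mean, against the fit over all probe sets. Like the members, these lists were chosen with earlier results of these data known. Of 20 tested G1 cyclins, kinases, pocket proteins and E2F factors outside the members, 0 passed the limma threshold for tumours against knockout livers and 0 for knockout against heterozygous livers. For tumours against heterozygous livers 0 rose and 1 fell, beside 2.47% of all probe sets lower. That gene was Rbl2, the p130 pocket protein of resting cells, at 117.6 ± 43.2 in tumours and 232.1 ± 22.6 in heterozygous livers (SD, n = 6 and 3), with groups that did not overlap and a limma adjusted p of 0.0216. Its other probe set gave a log2 change of -0.84 with an adjusted p of 0.0618. The median change of the list was 0.12, 0.04 and 0.28 in the 3 comparisons. Cks1b, a small subunit of cyclin-dependent kinases and the gene with the highest signals of the list, gave 0.16 for tumours against knockout livers and 0.41 for knockout against heterozygous livers, with limma adjusted p-values of 0.892 and 0.557.

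Only 2 of 5 other CDK inhibitors could be tested and neither passed in any comparison. Cdkn2d (p19), the INK4 relative of Cdkn2c, averaged 50.9 ± 15.8 in tumours, 27.6 ± 8.85 in knockout livers and 40.4 ± 8.11 in heterozygous livers (SD, n = 6, 6 and 3). Its log2 change was 0.70 for tumours against knockout livers, with a limma adjusted p of 0.250, and -0.45 for knockout against heterozygous livers, with 0.441.

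Of 33 genes listed as other p53 targets, with Trp53 itself among them but without a probe set, 25 were tested. By limma 0 passed for tumours against knockout livers and 0 for knockout against heterozygous livers, while 2 rose and 0 fell for tumours against heterozygous livers, beside 3.89% of all probe sets higher and 2.47% lower. Ckap2, a spindle-associated protein, averaged 135.5 ± 118 in tumours and 17.5 ± 10.8 in heterozygous livers (SD, n = 6 and 3), a change of 2.24 ± 0.43 with a limma adjusted p of 0.00493. Phlda3, an inhibitor of Akt signalling, averaged 123.2 ± 34.5 in tumours and 57.2 ± 26.0 in heterozygous livers (SD, n = 6 and 3), a change of 1.04 ± 0.24 with an adjusted p of 0.0167. The list's median change was 0.16, 0.13 and 0.52 in the 3 comparisons. Ei24, the target with the highest signals, gave -0.45 for tumours against knockout livers and -0.14 for knockout against heterozygous livers, with limma adjusted p-values of 0.461 and 0.840. Of 5 other GADD45 and BTG/TOB family genes, 0 passed in any of the 3 comparisons by limma. Gadd45a was counted here and among the p53 targets. Tob1, an antiproliferative relative of Btg2, gave -0.10, 0.16 and 0.06 on the log2 scale.

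S phase and mitosis genes were set beside the members, since these are the steps that the members start or hold back. Of 19 tested, 0 passed for tumours against knockout livers, 5 rose for knockout against heterozygous livers and 11 rose for tumours against heterozygous livers, and 0 fell in any comparison, beside 1.46% and 3.89% of all probe sets higher against heterozygous livers. This list too was chosen with earlier results of these data known, and both of those comparisons use the same 3 controls, so its counts are a description. The median log2 change of the list was 0.48, 0.94 and 1.35. Mcm6, a subunit of the replicative helicase, averaged 136.1 ± 38.7 in tumours, 123.3 ± 83.0 in knockout livers and 13.5 ± 18.2 in heterozygous livers (SD, n = 6, 6 and 3), with limma adjusted p-values of 0.00123 for tumours and 0.00639 for knockout livers, both against heterozygous livers. Its other probe set gave 1.28 and 1.05 with adjusted p-values of 0.0639 and 0.205. Ccnb2, a mitotic cyclin, averaged 88.8 ± 34.1 in tumours, 58.4 ± 42.0 in knockout livers and 7.17 ± 1.27 in heterozygous livers (SD, n = 6, 6 and 3), with adjusted p-values of 0.00217 and 0.0374 for the same comparisons. Pcna, the sliding clamp of DNA replication, gave -0.11 for tumours against knockout livers, with an adjusted p of 0.911.

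The genes whose profiles over the 15 arrays were most like those of 3 members were named by the smallest root mean square difference of centred log2 values among 14779 probe sets of single genes. For Ccnd1 they were Apoa4, an apolipoprotein, at 0.41, Fasn, the fatty acid synthase, at 0.50, and Alas1, the first enzyme of haem synthesis, at 0.50. Ccnd1 itself deviated from its own mean by 1.03 on that measure. Like Ccnd1, these 3 were lowest among the tumours in tumour 5-1, at 960.3 for Apoa4, 442.6 for Fasn and 508.1 for Alas1, against medians of 5004, 2465 and 3184 over the tumours. Tumour 5-1 was among the arrays used to pick them, so this describes the likeness and is no separate result. For Cdkn2c they were Casp12, a caspase of the endoplasmic reticulum, at 0.36, Pvr, a cell adhesion receptor, at 0.44, and Nabp1, a single-stranded DNA binding protein, at 0.52. Casp12 read 149.4 to 280.7 in tumours and 110.8 to 182.1 in knockout livers, against 19.5 to 40.1 in heterozygous livers. For Cdkn1a they were Usp18, an interferon-induced protease, at 0.52, Abcb1a, a drug transporter, at 0.57, and Tmem98, a membrane protein, at 0.57. Usp18 read 150.3 to 274.3 in tumours, 43.9 to 201.2 in knockout livers and 22.7 to 52.5 in heterozygous livers.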

How the data were processed

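Liver RNA of 15 samples was measured on Affymetrix arrays. The deposited values are MAS5 signals, an intensity per probe set, made by the authors with MAS5 per the submitters' processing notes; its version and scaling target are not given in the sources used here. The design text names a larger array design than the 22690 probe sets of the table, and probe sets were named by the platform annotation of that table. No detection calls were used, and depth has no meaning for arrays, so the number of arrays limits the precision.

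From these, log2 values were taken after a constant of 9.1, the 20th percentile of all signals, was added. The 64 control probe sets were left out and probe sets above the 40th percentile of their array in at least 3 arrays were kept. All 15 arrays entered 1 fit with limma 3.58.1 in R 4.3.3 (lmFit, eBayes with trend), with the mouse as a random block (statmod 1.5.0, consensus correlation -0.013). Tests are two-sided, with Benjamini-Hochberg adjustment over 16128 probe sets and a threshold of 0.05. The fit was tested on simulated data. The labels tie tumours and livers to mice. Deviations of a tumour and the liver of its mouse correlated by -0.16 to 0.09 over 6 pairs, and those of different mice by -0.09 to 0.16. Deviations of 2 tumours of the same mouse correlated by -0.05 to 0.01 over 2 pairs. Those of tumours of different mice correlated by -0.34 to -0.11 over 13 pairs. On this measure tumours of the same mouse were more alike than tumours of different mice.

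The members and the lists of other genes were chosen with earlier results of these data known. Within each list, each comparison names up to 2 genes with the largest rise and up to 2 with the largest fall among those past the threshold, or the gene with the highest signals where none passed. Alternatives were other constants, scaling, filters, blocks, samples, features, variance models and an actin ratio covariate, and leaving out each array in turn.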

Additional observations from a re-analysis of the deposited data

Results flagged for a closer look

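A single sample stood far from the others of its group on 5 of the 48 combinations of a member probe set and a group of 6 that were looked at. The gap to the nearest sample, relative to the range of the group on the log2 scale, exceeded 0.625, a limit that chance passes in about 5% of groups. Ccnd1 in tumour 5-1 was at 88.3 on 1417419_at, where the other tumours were at 430.0 to 731.2, and at 181.8 on 1448698_at, where they were at 677.6 to 1464.2. Cdk4 in the same tumour was at 269.7 on 1422439_a_at, with the others at 82.5 to 126.7, and at 374.0 on 1422441_x_at, with the others at 150.7 to 211.3. Gadd45b in knockout liver 5 was at 6.9 on 1449773_s_at, where the other knockout livers were at 35.1 to 71.3. The 4 flags of tumour 5-1 share 1 array, so they are not independent.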

How the results depend on the processing

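Over all probe sets, 20 passed for tumours against knockout livers, 293 for knockout against heterozygous livers and 1026 for tumours against heterozygous livers. For tumours against knockout livers the count was 4 with no constant, 11 with a larger constant, 13 after quantile normalization, 13 with 1 probe set per gene and 3 without trend. By limma it was 0 with only the compared groups (1441 at an unadjusted p under 0.05), 0 with the actin covariate (1220) and 0 with the mouse as a fixed replicate block in matched animals (1206). Knockout against heterozygous livers gave 1497 with only the compared groups, 162 with 1 probe set per gene and 38 with the actin covariate, and tumours against heterozygous livers gave 224, 664 and 44. With no replicate block the 3 counts were 20, 289 and 1014. Leaving out 1 array gave 0 to 119 for tumours against knockout livers (119 without tumour 6-1, 9 without knockout liver 6, and at most 2 without any other), 73 to 477 for knockout against heterozygous livers and 380 to 1204 for tumours against heterozygous livers. Knockout livers 1 to 4 and each control lowered the second count by over 1.5 times (180, 149, 135, 137, 84, 91 and 73), tumour 5-1 raised it to 477, and each control lowered the third (425, 393 and 380). The cause was not tested.

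No member passed for tumours against knockout livers under any alternative run, with a smallest adjusted p of 0.0942. Of the members' values, 15 of 604 for knockout and 18 of 604 for tumours against heterozygous livers moved by more than the spread between replicates, 22 of these with the actin covariate, 6 with the larger and 5 with no constant. Of all member values under the alternatives, 28 of 628, 22 of 604 and 15 of 604 in the 3 comparisons had the opposite sign. Dim controls limit the size of the Cdkn1a, Cdkn2c and Gadd45b differences.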
